A study of Mus musculus with 6 samples.

Results

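Hormone receptor genes were followed through the first steps of cartilage formation in the mouse hind limb. They encode the vitamin D receptor (Vdr), its partners the retinoid X receptors (Rxra, Rxrb and Rxrg), the thyroid hormone receptors (Thra and Thrb), the glucocorticoid receptor (Nr3c1) and oestrogen receptor alpha (Esr1). The members were chosen by name and not by a rule on their values, but with earlier results of these data known. All spots whose sole gene symbol in the probe annotation was one of these 8 were taken. This gave 27 of the 45220 spots and 8 of the 19077 genes. The tissue came from Swiss white mouse embryos and was cut from frozen sections of the tibial and fibular region. It comprised pre-condensed mesenchyme at 11.5 days post coitum (dpc, pooled from 4 hind limbs), the mesenchymal condensation at 12.5 dpc (3 hind limbs) and the cartilage anlagen at 13.5 dpc (4 hind limbs). No group carried a transgene, a mutation or a treatment. Every 2 time points were set against each other on 2 Agilent whole genome arrays with the dyes Cy3 and Cy5 exchanged, giving 6 arrays from 3 RNA pools.

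These receptors are transcription factors that are switched by a small hormone entering the cell. Vdr and the thyroid hormone receptors bind DNA mostly as a pair with a retinoid X receptor, whereas the glucocorticoid and oestrogen receptors act mainly as pairs of the same molecule, the glucocorticoid receptor after release from chaperones in the cytoplasm. In the growing skeleton vitamin D is known for mineral supply, thyroid hormone for the pace of chondrocyte maturation, glucocorticoids for restraint of growth and oestrogen for closure of the growth plate.

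The values below are log2 ratios of the later over the earlier time point, taken from the deposited log2 ratios after each array was centred on its median. For a gene they are means over its spots, and a fitted ratio is the least squares value over the 6 arrays. The error printed after ± is technical only, the distance of each of the 2 arrays of a pair from their mean. It is not the error of the fit over the 6 arrays, which can be larger. Each time point was a single RNA pool, so no test between time points was possible and no p-value is given. The threshold used for a call was a 3-fold difference, or 1.58 on the log2 scale. A spot is called dim where its values on at least 2 arrays were ratios of whole numbers up to 12, which stands in for weak signal since intensities were not used here.

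Vdr was the receptor gene with the largest difference over the 2 days. At 13.5 dpc its fitted level was 20.7-fold that at 11.5 dpc, and most of this difference lay between 12.5 and 13.5 dpc. It was also the sole one of the 8 genes past 3-fold. Vdr lies on chromosome 15 (GRCm38.p6, 97854427 to 97908296). Its promoter window is shown because Vdr was the member past the threshold. The window runs in the direction of the gene from 250 bases before the RefSeq start site to 50 bases after it, with the GC box GGGCGG in capitals.
Vdr chr15:97908247-97908546, minus strand: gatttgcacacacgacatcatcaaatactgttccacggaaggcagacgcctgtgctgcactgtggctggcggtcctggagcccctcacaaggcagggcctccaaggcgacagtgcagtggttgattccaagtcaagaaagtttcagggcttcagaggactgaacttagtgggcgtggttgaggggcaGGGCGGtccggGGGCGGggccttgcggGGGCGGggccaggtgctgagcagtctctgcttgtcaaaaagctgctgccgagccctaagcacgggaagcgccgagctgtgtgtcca
The window held 3 GC boxes, which began 63, 52 and 36 bases before the start. Its GC content was 61.3%. Of all 32851 RefSeq windows of this length, 35.7% held GGGCGG on either strand. The hexamer AGGTCA, the core of the sites bound by Vdr, retinoid X and thyroid hormone receptors, was not in the Vdr window, and 16.3% of all windows held it on either strand.

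A single spot, designed for transcript NM_009504, measured Vdr, and it had a value on all 6 arrays and was not dim. The 13.5 over 11.5 dpc arrays gave log2 ratios of 4.59 and 3.94. The 12.5 over 11.5 dpc arrays gave 1.49 and 1.20. The 13.5 over 12.5 dpc arrays gave 3.39 and 3.07. All 6 arrays were thus above 0, and the 4 arrays that held the 13.5 dpc pool stood clear of the pair that did not. The fitted log2 ratio of 13.5 over 11.5 dpc was 4.37 ± 0.33 (technical error, n = 2 arrays). The first day contributed a fitted log2 ratio of 1.24 ± 0.14, or 2.37-fold, and the second 3.13 ± 0.16, or 8.74-fold. Without centring they were 1.69, which is past 3-fold, and 2.85. The order of the Vdr levels was therefore 11.5, 12.5 and 13.5 dpc from low to high, with neighbouring levels apart by more than the technical error. Among the 19077 genes Vdr ranked 37 from the top at 13.5 over 11.5 dpc, 600 at 12.5 over 11.5 dpc and 31 at 13.5 over 12.5 dpc.

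**Figure D1:**
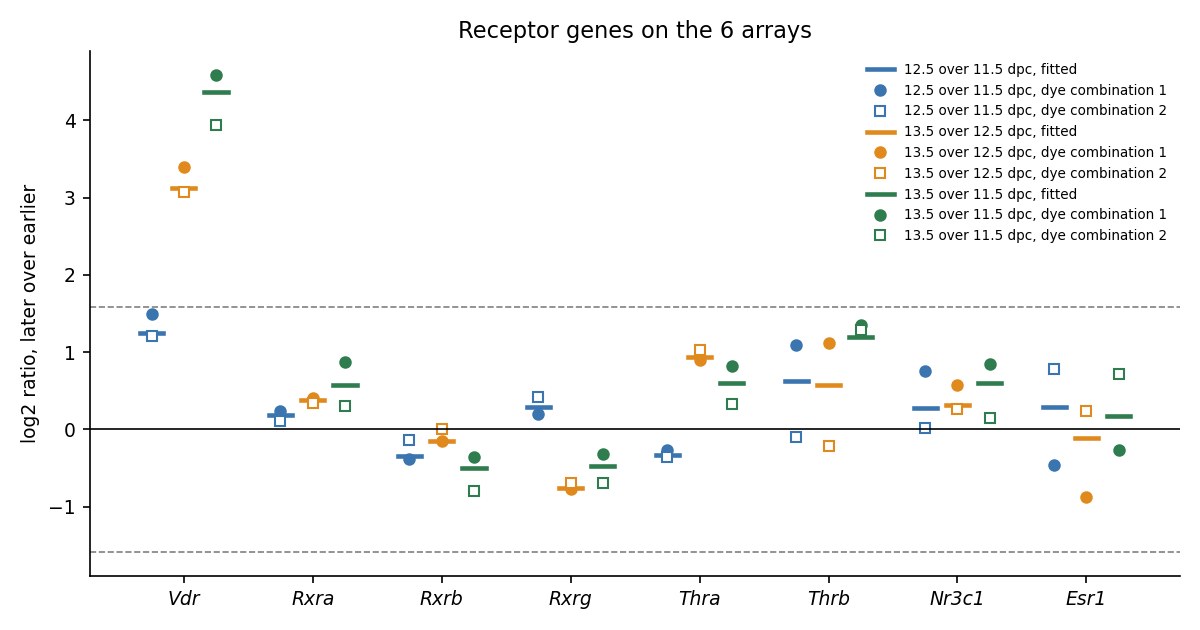
Log2 ratio of the later over the earlier time point (vertical axis) for the 8 receptor genes on each of the 6 arrays, filled circles for dye combination 1 (later time point in Cy5), open squares for combination 2 (later time point in Cy3), short lines for the value fitted over all arrays and dashed lines at 3-fold. The Vdr arrays of 13.5 over 11.5 dpc (4.59 and 3.94) and of 13.5 over 12.5 dpc (3.39 and 3.07) lie above the dashed line, and no array value of the other 7 genes does.

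Of the 8 genes, 1 was higher by 3-fold or more and none lower by 3-fold or more at 13.5 than at 11.5 dpc. Over all genes 2.93% were higher by 3-fold or more and 2.57% lower by 3-fold or more in that comparison. Between 12.5 and 11.5 dpc none of the 8 passed in either direction, where 1.24% of all genes were higher and 0.299% lower. Between 13.5 and 12.5 dpc Vdr again passed alone, where 1.35% of all genes were higher and 0.776% lower. With 8 genes, 1 call is too few to set the group apart from the background. The median log2 ratio of the 8 genes was 0.59 at 13.5 over 11.5 dpc, against 0.07 over all genes. It was 0.28 against -0.01 at 12.5 over 11.5 dpc and 0.35 against -0.04 at 13.5 over 12.5 dpc. Of the 8 genes 6 were above 0 at 13.5 over 11.5 dpc, against 54.6% of all genes. In bulk tissue fewer cells of a type and less RNA per cell cannot be told apart, for Vdr and for every gene below.

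The 5 genes whose 6 array values lay nearest to those of Vdr were Matn2, Fbln7, Calml3, Klf4 and Ucma, among 18417 genes measured on all arrays. Matn2, a matrilin of the extracellular matrix, was the closest, at a root mean square distance of 0.25 on the log2 scale. Fbln7, a secreted fibulin, and Calml3, a calmodulin-like protein, both lay at 0.28. Klf4, a zinc finger transcription factor, lay at 0.31 and Ucma, a matrix protein of cartilage, at 0.32. Each was measured by 1 spot that was not dim, and their fitted log2 ratios of 13.5 over 11.5 dpc lay between 4.08 for Klf4 and 4.27 for Calml3. The promoter window of Klf4 held 4 GC boxes, and those of Fbln7 and Ucma held none. AGGTCA was in none of these 3 windows.

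**Figure D2:**
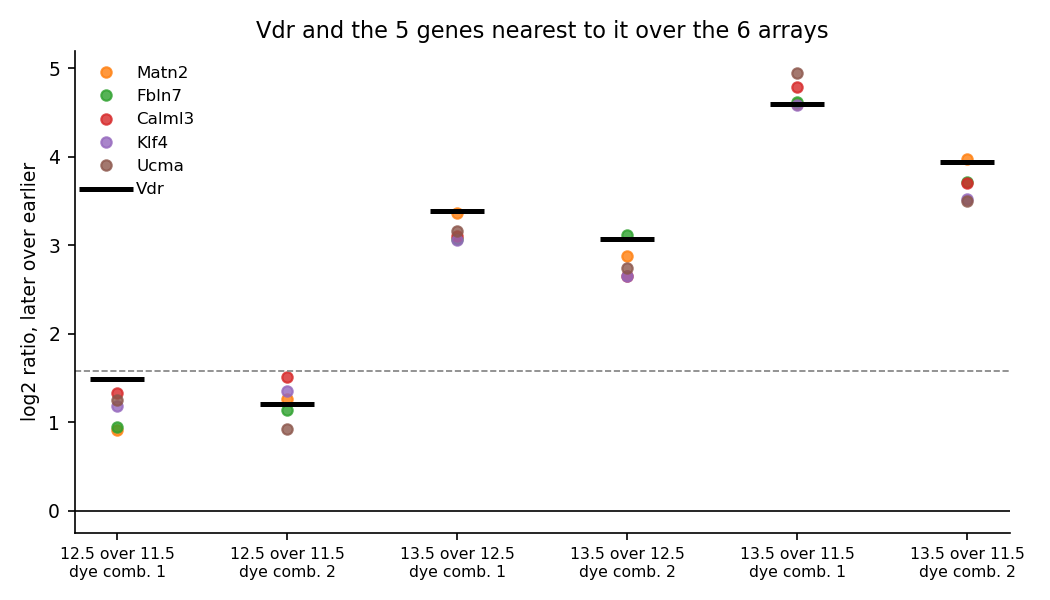
Log2 ratio of the later over the earlier time point (vertical axis) on each of the 6 arrays (horizontal axis) for Vdr (black lines) and the 5 genes nearest to it (coloured circles), with a dashed line at 3-fold. The 6 genes were lowest on the pair of 12.5 over 11.5 dpc arrays and highest on the first 13.5 over 11.5 dpc array, where Vdr was at 4.59 and Ucma at 4.95.

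The genes that make, carry and break down vitamin D differed much less than Vdr. Of 8 listed genes 7 were measured, none passed 3-fold in any comparison, and their median log2 ratio of 13.5 over 11.5 dpc was 0.13. Cubn, an endocytic receptor that takes up the vitamin D carrier in the kidney, had the largest fitted ratio at 1.33. Cyp2r1, a liver enzyme of vitamin D activation, was at 0.78 on a dim spot. Cyp24a1, which breaks down active vitamin D and is one of the best known Vdr targets, was at -0.46.

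Of 12 genes known to respond to vitamin D in bone, gut or kidney, 3 were higher by 3-fold or more at 13.5 than at 11.5 dpc. None was lower by 3-fold or more, and the median log2 ratio was 0.18. Of the 12 genes 7 were above 0, and the lowest was Bglap at -1.18. Ibsp, bone sialoprotein, which is also a marker of osteoblasts and of mature chondrocytes, had a fitted log2 ratio of 8.43. Its arrays gave 7.79 and 9.36. Cdkn1a, a cell cycle inhibitor, was at 4.02, and its 10 spots lay between 3.94 and 4.18. Most of the Cdkn1a difference fell on the second day, with fitted log2 ratios of 0.44 at 12.5 over 11.5 dpc and 3.58 at 13.5 over 12.5 dpc. The same held for Vdr and for Ibsp (1.98 and 6.45). A link between Vdr and these genes was not tested. Tnfsf11, the osteoclast differentiation factor RANKL, was at 2.06, but on 2 dim spots of 0.88 and 3.24. Trpv6, a calcium channel of the gut, passed 3-fold at 12.5 over 11.5 dpc (1.63) on 1 dim spot and stood at 0.72 at 13.5 over 11.5 dpc.

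The partners of Vdr, the retinoid X receptors, differed far less and not all the same way. Rxra was 1.49-fold higher at 13.5 than at 11.5 dpc, whereas the fitted levels of Rxrb and Rxrg were 1.41-fold and 1.39-fold lower. None of the 3 genes came near the 3-fold threshold in any comparison.

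Rxra, a widely expressed receptor located on chromosome 2 (27676445 to 27763319), was measured by 2 spots that were not dim. Its 13.5 over 11.5 dpc arrays gave 0.88 and 0.30. Its 12.5 over 11.5 dpc arrays gave 0.24 and 0.11, and its 13.5 over 12.5 dpc arrays gave 0.40 and 0.34. All 6 arrays were above 0. The fitted log2 ratios were 0.58 ± 0.29 over the 2 days, 0.19 ± 0.06 over the first day and 0.39 ± 0.03 over the second. The levels thus followed the same order as those of Vdr, but one spot carried more of the difference (0.83 at 13.5 over 11.5 dpc) than the other (0.32), and on the first day the latter stood at -0.01. Without centring the arrays the first-day ratio was 0.64 and the second-day ratio 0.11, so which day held most of the Rxra difference depended on the centring.

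Rxrb (chromosome 17, 34031812 to 34038403) was lower at each later time point on the fitted scale. Its 13.5 over 11.5 dpc arrays gave -0.36 and -0.79, its 12.5 over 11.5 dpc arrays -0.38 and -0.14, and its 13.5 over 12.5 dpc arrays -0.15 and 0.01. The last pair lay on both sides of 0, so the order of the 12.5 and 13.5 dpc levels was not settled. The fitted log2 ratio of 13.5 over 11.5 dpc was -0.50 ± 0.22 and rested on 1 of its 2 spots: the dim spot was at -0.92 and the other at -0.07. That of 12.5 over 11.5 dpc was -0.34 ± 0.12, and it turned to 0.10 where the arrays were not centred. The second-day ratio was -0.15 ± 0.08, and -0.43 without centring.

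Rxrg, a receptor known for a narrow expression in muscle and brain (chromosome 1, 167598362 to 167639623), was highest at 12.5 dpc and lowest at 13.5 dpc. Its single spot, which was not dim, gave 0.20 and 0.42 on the 12.5 over 11.5 dpc arrays. It gave -0.77 and -0.69 on the 13.5 over 12.5 dpc arrays, and -0.32 and -0.70 on the 13.5 over 11.5 dpc arrays. The 2 arrays of every pair were on the same side of 0. The fitted log2 ratios were 0.28 ± 0.11 on the first day, -0.76 ± 0.04 on the second and -0.48 ± 0.19 over both. Without centring they were 0.73, -1.04 and -0.31. Relative to 13.5 dpc the levels were 1.39-fold at 11.5 dpc and 1.70-fold at 12.5 dpc. Among markers of skeletal muscle, in which Rxrg is known to be expressed, 8 of 8 were measured. All 8 were above 0 at 12.5 over 11.5 dpc with a median of 0.68, against 49.2% of all genes. At 13.5 over 12.5 dpc 4 were above 0 with a median of -0.01, against 46.5% of all genes. Over both days 6 were above 0 with a median of 0.67, whereas Rxrg was at -0.48. Most spots of Myf5 (9 of 10) and Pax3 (9 of 11) were dim. The paper reported negligible Myod1 expression in these tissues. The part of muscle cells in the Rxrg values was not tested.

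The genes Rxra, Rxrg and Thrb held AGGTCA in a promoter window, where 16.3% of all RefSeq windows held it on either strand. The windows of the members are too few to be set apart from that share. The stretches around the hexamer are shown because it is the shared core of the sites that these receptors bind. In each stretch the hexamer, or its reverse complement TGACCT, is in capitals.
Rxra chr2:27709193-27709222, plus strand: tagaaatgggtgTGACCTgagtaatggtca
Rxra chr2:27709232-27709261, plus strand: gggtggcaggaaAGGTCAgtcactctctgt
Rxrg chr1:167618165-167618194, plus strand: atcggggttgaaAGGTCAgctgaaagcttc
Thrb chr14:17660764-17660793, plus strand: aggagagttgacAGGTCAagggaatagggc
The hexamers began 87 and 48 bases before the start of the second Rxra window, 88 before that of the second Rxrg window and 184 before that of the first Thrb window. In the other windows of the members, GC boxes numbered 4 in the first window of Rxra and 2 and 4 in the windows of Rxrb. The first Thrb window held 3 GC boxes beside its hexamer. The first Rxrg window, the second Thrb window and both Esr1 windows held neither motif. Windows of 6 of the 8 genes were examined here, without Thra and Nr3c1, and a match is a description of the letters, not a bound site.

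Both thyroid hormone receptor genes had fitted levels that were higher at 13.5 than at 11.5 dpc, 1.52-fold for Thra and 2.29-fold for Thrb. For Thra it rested on 1 of its 2 spots, although both spots were higher at 13.5 than at 12.5 dpc. For Thrb it lay mainly on 1 of its 4 spots.

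Thra encodes the receptor that carries most of the thyroid hormone response in bone (chromosome 11, 98740776 to 98769006), and 2 spots that were not dim measured it. Its 12.5 over 11.5 dpc arrays gave -0.26 and -0.35, both below 0. Its 13.5 over 12.5 dpc arrays gave 0.90 and 1.03, both above 0. Its 13.5 over 11.5 dpc arrays gave 0.82 and 0.33. The fitted log2 ratios were -0.34 ± 0.04 on the first day, 0.94 ± 0.06 on the second and 0.60 ± 0.25 over both, so that the lowest level was at 12.5 dpc and the highest at 13.5 dpc, 1.91-fold above it. Without centring the arrays the first-day ratio was 0.11, and 11.5 and 12.5 dpc then changed places. Over both days 1 spot was at 1.14 and the other at 0.07. They differed in the first-day ratio (0.07 and -0.73) more than in the second-day ratio (1.07 and 0.80).

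Thrb, the receptor known for its part in the pituitary feedback, hearing and liver (chromosome 14, 17659225 to 18040097), was measured by 4 spots for 3 transcript records, and 2 of the spots were dim. Its means on the 13.5 over 11.5 dpc arrays were 1.35 and 1.29. On the 12.5 over 11.5 dpc arrays they were 1.09 and -0.10, and on the 13.5 over 12.5 dpc arrays 1.11 and -0.22. Only the comparison over both days had the arrays on one side of 0. The fitted ratios were 1.20 ± 0.03 over both days, 0.62 ± 0.59 on the first and 0.57 ± 0.66 on the second, so 12.5 dpc could not be placed between the other 2 time points beyond the technical error. The close match of the direct arrays over both days understates the error of the fit, since dye combination 1 alone gave 1.63 and dye combination 2 alone 0.76 (SD 0.62). Without centring the first-day ratio was 1.07 and the second-day ratio 0.30. The spots of Thrb differed widely. The one for transcript AK158826, which was not dim, had a fitted log2 ratio of 2.97 at 13.5 over 11.5 dpc, or 7.81-fold, and gave 3.01 and 2.93 on the direct arrays. The dim BC042730 spot was at 0.83. The spots for NM_009380, the RefSeq transcript, were at 0.54 (dim) and 0.44. The AK158826 spot was also the sole Thrb spot past 3-fold at 13.5 over 12.5 dpc, at 2.45, where its arrays gave 3.74 and 1.17.

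**Figure D3:**
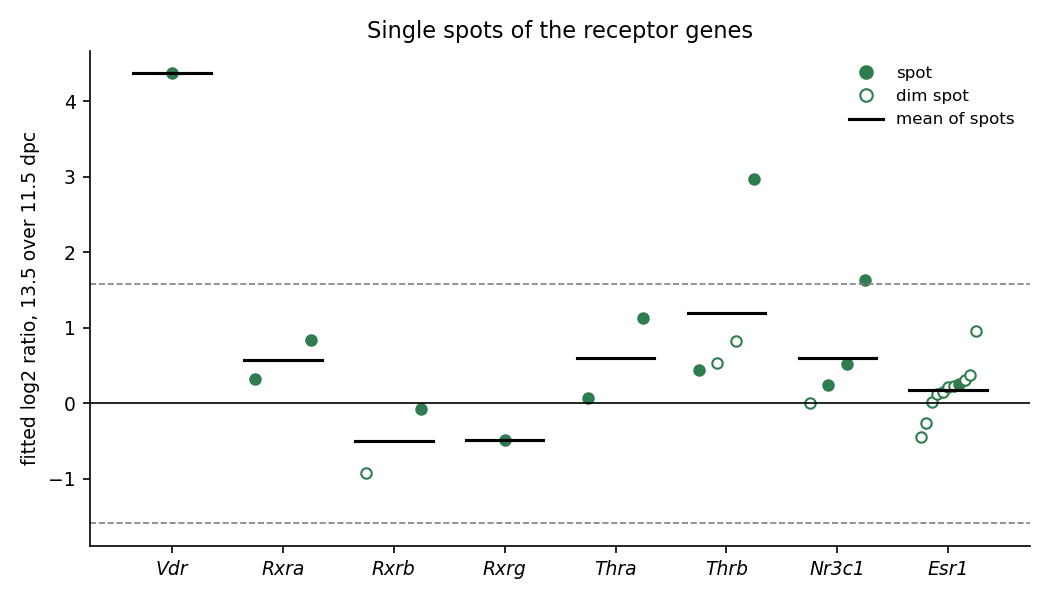
Fitted log2 ratio of 13.5 over 11.5 dpc (vertical axis) of each of the 27 spots of the 8 receptor genes, with open circles for dim spots, a black line for the mean over the spots of a gene and dashed lines at 3-fold. The spots past 3-fold are the single Vdr spot (4.37), 1 of 4 Thrb spots (2.97) and 1 of 4 Nr3c1 spots (1.63), and the 11 Esr1 spots, mostly dim, lie on both sides of 0.

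Counted by spot, 3 of the 27 were higher by 3-fold or more at 13.5 than at 11.5 dpc, against 3.04% of all spots, and none was lower by 3-fold or more. The same 3 spots, 1 each of Vdr, Thrb and Nr3c1, were higher by 3-fold or more at 13.5 than at 12.5 dpc, against 1.8% of all spots. None of the 27 was higher or lower by 3-fold or more at 12.5 than at 11.5 dpc. Spots of 1 gene share a target and are not independent of each other.

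Among the genes that supply thyroid hormone to cells, 9 of 10 were measured and 1 passed 3-fold. Crym, which binds thyroid hormone in the cytoplasm, was lower at 13.5 than at 11.5 dpc, with a fitted log2 ratio of -2.37 and array values of -2.25 and -2.57. Most of that difference fell on the second day (-2.00). Ttr, a plasma carrier of thyroid hormone, was at -0.84 on 1 dim spot. That spot gave -2.46 on the first 13.5 over 11.5 dpc array and had no value on the second. Dio3, the enzyme that inactivates thyroid hormone, was at 0.53. The median log2 ratio of the list was 0.06.

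Of 11 listed genes that respond to thyroid hormone 10 were measured, and 1 was higher by 3-fold or more and 1 lower by 3-fold or more at 13.5 than at 11.5 dpc, with a median log2 ratio of 0.17. Nrgn, neurogranin, a calmodulin-binding protein best known in brain, was at 2.37. Igf1, the insulin-like growth factor that is also an oestrogen and growth hormone target, was at -3.82, with its 11 spots between -4.02 and -3.14. Fgfr3, a fibroblast growth factor receptor that restrains chondrocyte proliferation, was at 1.44, short of the threshold. The response genes thus stood on both sides of 0 (5 of 10 above it).

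The glucocorticoid receptor gene Nr3c1 had a fitted level 1.52-fold higher at 13.5 than at 11.5 dpc, and 1 of its 4 spots decided this value. It is on chromosome 18, and no sequence of it is shown. Its means on the 13.5 over 11.5 dpc arrays were 0.85 and 0.15, on the 12.5 over 11.5 dpc arrays 0.75 and 0.02, and on the 13.5 over 12.5 dpc arrays 0.58 and 0.26. All 6 were above 0, the second array of each pair by less than the first. The fitted log2 ratios were 0.60 ± 0.35 over both days, 0.28 ± 0.37 on the first and 0.32 ± 0.16 on the second, so the 11.5 and 12.5 dpc levels did not differ beyond the technical error. Without centring the first-day ratio was 0.73 and the second-day ratio 0.04. The spot for transcript AK171439 gave 1.72 and 1.22 on the 13.5 over 11.5 dpc arrays and 1.91 and 1.84 on the 13.5 over 12.5 dpc arrays, with fitted ratios of 1.63 and 1.73. The 3 spots for NM_008173 were at 0.25, 0.01 (dim) and 0.52 over both days, and the last of them gave 1.37 and -1.14 on its direct arrays. On the second day 2 of these 3 spots were below 0, at -0.24 and -0.46, opposite to the AK171439 spot.

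Of 12 genes for glucocorticoid supply and receptor chaperones 11 were measured. Hsd11b2, the enzyme that inactivates glucocorticoids, was lower by 3-fold or more at 13.5 than at 11.5 dpc, at -1.67 on a dim spot, and the other 10 were within 3-fold. H6pd, which supplies the cofactor for glucocorticoid reactivation, was at 1.41 with spots of 0.82 and 2.01. Stip1, a chaperone adaptor of the receptor, was at -0.49. The median log2 ratio of the list was -0.32 over both days.

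Of 14 listed glucocorticoid response genes 13 were measured, 2 were higher by 3-fold or more, 1 was lower by 3-fold or more and the median log2 ratio was -0.29. Anxa1, annexin A1, a mediator of the anti-inflammatory action of glucocorticoids, was at 5.04, with array values of 5.27 and 5.13. Dusp1, a phosphatase of MAP kinases, was at -1.67, with array values of -1.49 and -1.97. Cdkn1c, a cell cycle inhibitor, was at 1.67, but its arrays gave 4.42 and -1.14 and so disagreed in direction. The same held for its second-day ratio of 1.91, with arrays of 4.06 and -0.19.

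Esr1 (chromosome 10, 4611989 to 5005633) could not be followed with these arrays. It had 11 spots for NM_007956, of which 10 were dim and 6 had a value on all 6 arrays. The 13.5 over 11.5 dpc arrays gave means of -0.27 and 0.72, the 12.5 over 11.5 dpc arrays -0.46 and 0.79, and the 13.5 over 12.5 dpc arrays -0.87 and 0.23. In every pair the array with the later time point in Cy5 was below 0 and the array with it in Cy3 above 0, so the sign followed the dye. The spread among spots of 1 array was of the same order: on the second 12.5 over 11.5 dpc array the 11 spots ran from -0.81 to 2.31 with a median of 0.85, and on the first they ran from -1.10 to 0.62 with a median of -0.72. The fitted log2 ratios were 0.17 ± 0.49, 0.29 ± 0.62 and -0.11 ± 0.55 for 13.5 over 11.5, 12.5 over 11.5 and 13.5 over 12.5 dpc. None exceeded its technical error. Without centring they were 0.38, 0.77 and -0.39, and with a term for the dye 0.03, 0.24 and -0.22. The levels of Esr1 at the 3 time points have no order here.

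**Figure D4:**
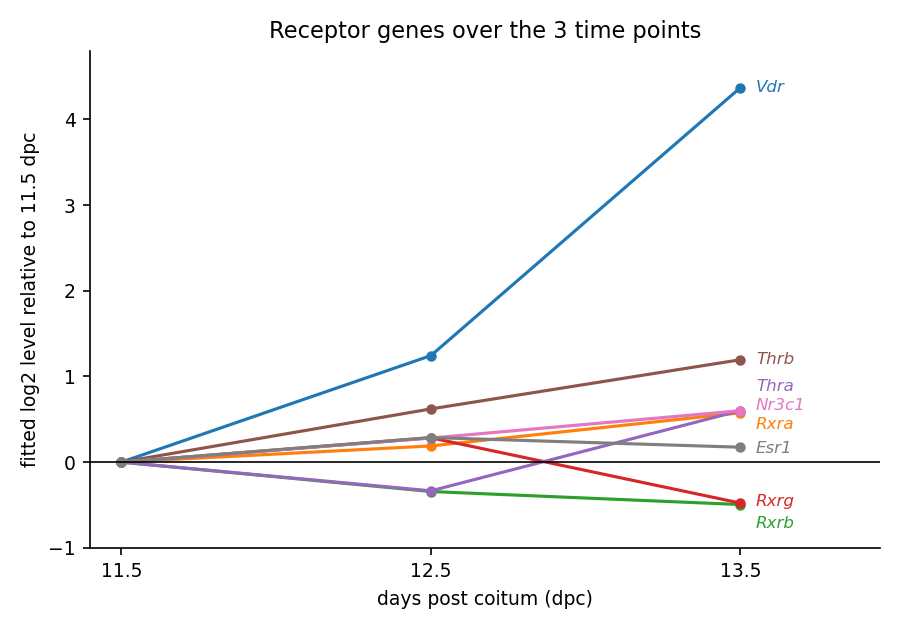
Fitted log2 level relative to 11.5 dpc (vertical axis) of the 8 receptor genes at 11.5, 12.5 and 13.5 dpc (horizontal axis), 1 RNA pool a time point. Vdr reaches 1.24 and then 4.37, Thrb ends at 1.20, Thra has its lowest level at 12.5 dpc and Rxrg its highest there, and the end values of the other genes lie between -0.50 and 0.60.

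Of 9 listed genes of oestrogen supply 6 were measured, 1 was lower by 3-fold or more at 13.5 than at 11.5 dpc and the median log2 ratio was -0.68. Sult1e1, the sulfotransferase that inactivates oestrogens, was at -1.98, with array values of -1.90 and -2.33. Hsd17b4, a peroxisomal enzyme that also oxidises oestradiol, was at -0.71, and Hsd17b7, which acts in oestradiol and cholesterol synthesis, at -0.68. Of these 6 genes 1 was above 0.

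All 13 oestrogen response genes and cofactors were measured, of which 1 was higher by 3-fold or more and 3 lower by 3-fold or more at 13.5 than at 11.5 dpc, with a median log2 ratio of -0.25. Gper1, a membrane receptor for oestrogen, was at 1.88, nearly all of it on the second day (1.85). The 3 lower genes were Igf1, given above, Cxcl12, a chemokine, at -2.42, and Greb1, an oestrogen receptor cofactor, at -1.74. The arrays agreed in sign for each of the latter pair, at -2.34 and -2.59 for Cxcl12 and at -1.55 and -2.09 for Greb1.

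Among 36 measured genes of 41 listed for other nuclear receptors, none was higher by 3-fold or more at 13.5 than at 11.5 dpc, 1 was lower by 3-fold or more and the median log2 ratio was 0.23. Their highest value was 1.39, for Nr1i3, the xenobiotic receptor CAR of liver, on a dim spot. Nr1h4, the bile acid receptor, was at 1.25. Nr2f1, the orphan receptor COUP-TFI, was the gene past 3-fold, at -2.77 with array values of -3.26 and -2.53. The Vdr value of 4.37 thus stood above all 36 of these genes, and the Thrb value of 1.20 lay within their range.

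Of 28 nuclear receptor coregulators 26 were measured, and 1 was higher by 3-fold or more. Ppargc1b, a coactivator known for mitochondrial genes, was at 2.03, with spots between 0.56 and 3.58. Tbl1xr1 and Tbl1x, related subunits of a corepressor complex, were at -1.42 and -0.87. The median log2 ratio of the list was -0.26, and 6 of the 26 genes were above 0. Over the 10 lists together 137 of 152 genes were measured. Of these 8 were higher by 3-fold or more and 8 lower by 3-fold or more at 13.5 than at 11.5 dpc, and the median log2 ratio was -0.03. Over all genes 2.93% were higher and 2.57% lower by 3-fold or more in that comparison. The same shares are the background for the 3-fold count of each single list above. For the counts above 0 at 13.5 over 11.5 dpc the background is the 54.6% of all genes. No list was tested against these shares.

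**Figure D5:**
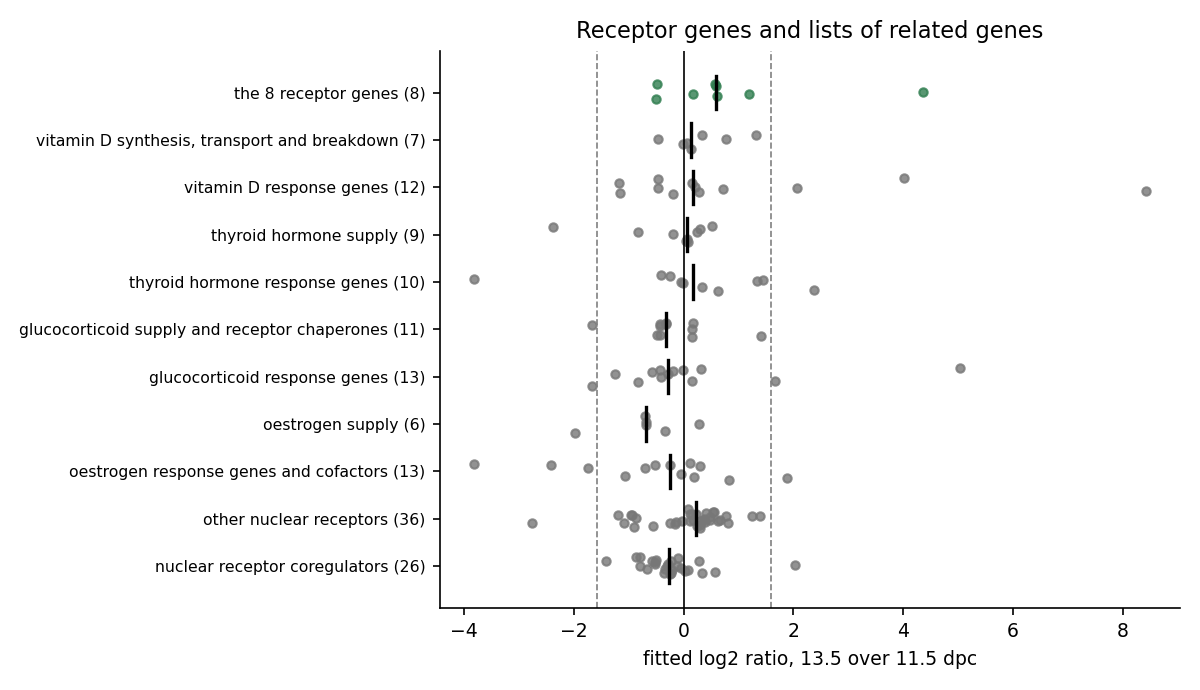
Fitted log2 ratio of 13.5 over 11.5 dpc (horizontal axis) of the 8 receptor genes (green) and of the measured genes of the 10 related lists (grey), with the number of genes in brackets, black bars for medians and dashed lines at 3-fold. The medians of the lists lie between -0.68 and 0.23 and that of the receptor genes at 0.59, with Vdr at 4.37 the single receptor gene outside the dashed lines.

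Markers of cartilage and of other cell types were followed over the same days. Of 8 cartilage markers 7 were higher by 3-fold or more at 13.5 than at 11.5 dpc, with a median log2 ratio of 4.01, beside 4.37 for Vdr. The exception was Sox9, the transcription factor that specifies chondrocytes, at -0.40. The direct arrays gave 3.98 and 0.61 for Col2a1 and 2.15 and 1.53 for Col9a1, so 1 array of each was short of 3-fold. The other cartilage markers past 3-fold passed it on both arrays, though by unlike amounts, as Comp did at 7.51 and 3.67. Of 7 markers of mesenchyme and condensation 2 were lower by 3-fold or more, Pcdh8 at -4.55 and Pdgfra at -1.70. Of 6 measured markers of osteoblasts and perichondrium 4 were higher by 3-fold or more, with a median of 3.21, and Ibsp is one of them. The others went the opposite way, Bglap at -1.18 and Postn at -0.70. Among 8 muscle markers 2 were higher, with a median of 0.67. The endothelial, blood, macrophage, ectoderm and Schwann cell lists had medians of -0.43, -1.21, -0.41, -0.00 and -0.09, with 1 endothelial and 1 blood gene lower by 3-fold or more. Only 3 of 5 blood, 4 of 7 macrophage and 2 of 4 Schwann cell markers were measured. The part of these cell types in the Vdr and Thrb values was not tested.

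The 2 arrays of a pair correlated across all spots with r = 0.52 for 13.5 over 11.5 dpc, 0.40 for 12.5 over 11.5 dpc and 0.33 for 13.5 over 12.5 dpc. Without the 15135 dim spots the values were 0.75, 0.50 and 0.50. Spots are not independent replicates, and these values are descriptions. As deposited, the array medians ran from -0.35 to 0.72. Without centring, the median of all genes shifted by 0.17, 0.45 and -0.28 for 13.5 over 11.5, 12.5 over 11.5 and 13.5 over 12.5 dpc. The median technical error of a spot was 0.21, 0.22 and 0.24. The 3 comparisons share their RNA pools and are not independent of each other.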

How the data were processed

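Hind limb skeletal tissue of Swiss white mouse embryos was compared at 11.5, 12.5 and 13.5 dpc on 6 two-channel arrays that share 3 RNA pools. Per the labels and the study's methods, RNA passed through 2 rounds of linear amplification before labelling, which can distort ratios. The authors deposited log2 ratios of Cy5 over Cy3. A print-tip loess correction is stated in the methods, but the deposited medians differed between arrays, so each array was centred on its median. Values beyond 16 in size were set to missing. Ratios were turned to later over earlier by the labelled dyes. Python 3.11.15 with numpy 2.4.6 and pandas 2.3.3 fitted 2 differences to the 6 arrays by least squares for each of 45108 spots, and the script was tested on simulated data. Of the 45220 spots 33653 had 1 gene symbol, 56 several and 11511 none. Promoter sequences came from RefSeq (GRCm38.p6).

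The members and the lists were chosen with earlier results of these data known. Named genes were all members, the genes of each list past 3-fold in any comparison (or the 3 with the largest 13.5 over 11.5 dpc ratio in size where fewer passed) and the 5 genes nearest to each member past 3-fold. The alternatives concerned centring, scaling, the arrays and spots used, the dye term, the cap and the threshold. Intensities were not used, so only the number of arrays, their technical error and the dim spots speak to precision. The replicates are dye exchanges of the same pools and leave out the spread between animals.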

Additional observations from a re-analysis of the deposited data

Results flagged for a closer look

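Rxrg and Thra were singled out because their steps on the first and the second day pointed opposite ways on every array. For Rxrg the fitted log2 ratio was 0.284 at 12.5 over 11.5 dpc and -0.763 at 13.5 over 12.5 dpc. For Thra it was -0.335 and 0.936 for the same steps, as means over its 2 spots. On the first day 1 of these spots stood at 0.07 and the other at -0.73, so the opposite steps rested on the latter. The difference between the steps was not tested, since each time point was 1 RNA pool and both steps share the 12.5 dpc pool. Without centring the arrays the first Thra step was 0.11, so that its steps then pointed the same way, while the Rxrg steps kept their signs.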

How the results depend on the processing

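The Vdr ratio of 13.5 over 11.5 dpc stayed past 3-fold under all 18 alternatives (4.05 to 4.69) and so did that of 13.5 over 12.5 dpc (2.85 to 3.30). Several of these could not change it, since Vdr had a single spot, not dim and with a value on every array. The choices among spots and the dye term therefore left its ratios fixed and are no check on them. The Vdr ratio of 12.5 over 11.5 dpc passed 3-fold under 1 of 18, without centring (1.69). Without centring the 13.5 over 11.5 dpc ratios of Rxrb and Rxrg were -0.327 and -0.310, and 1 member was at least 3-fold higher at 12.5 over 11.5 dpc. By the path through 12.5 dpc alone Rxrb was at -0.328, and without dim spots at -0.072. Leaving out 1 array gave -0.561 to -0.346 for Rxrb and -0.560 to -0.368 for Rxrg. With the AK158826 spot alone Thrb was at 2.966 and with the AK171439 spot alone Nr3c1 at 1.627. In that setting 3 members passed 3-fold at 13.5 over 11.5 dpc and 3 at 13.5 over 12.5 dpc. These were the sole Thrb and Nr3c1 spots past 3-fold, so keeping them alone fixed these counts in advance, and nothing is drawn from them. The number at least 3-fold higher at 13.5 over 11.5 dpc was 2 with dye combination 1 alone and 2 without dim spots. At a 2-fold threshold it was 2, and 1 at 12.5 over 11.5 dpc. Esr1 ran from -1.12 to 1.07 at 13.5 over 11.5 dpc, with the same sign as reported in 12 of 17 alternatives. Dye combination as a replicate block could not change the fit of a spot with a value on every array, since each pair holds both dye orders. All spots of the 7 members other than Esr1 were of this kind. Their unchanged values (Vdr 4.37) are therefore no check for a dye effect. For Esr1, 5 of 11 spots lacked a value on some array. The block moved its values to 0.028 at 13.5 over 11.5 dpc, 0.245 at 12.5 over 11.5 dpc and -0.218 at 13.5 over 12.5 dpc. It moved 5 of 33 list medians, by at most 0.024, and could do so only through spots lacking a value. Of 561 list medians under the alternatives 508 kept their sign. Fewer, 408, stayed within the technical SD, taken from the 2 dye combinations fitted alone. The causes were not tested. Dim spots (10 of 11 for Esr1, 2 of 4 for Thrb) and single pools limit what can be read from the smaller ratios.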
